A study of Mus musculus with 8 samples.

Results

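The early-replicating plateau of mouse chromosome 4 was defined as every 5 kb bin with a timing score in all 4 profiles and a mean of those scores above 2. It held 9584 of 30659 measured bins, which is 31.3% of the measured chromosome, or 47.92 Mb, and adjacent bins merged into 47 domains. The scores come from Repli-seq of JM8N4 mouse embryonic stem cells, unaltered as control, and of cells that lack an enhancer of Klf4, whose product is a transcription factor of the naive pluripotent state. All cells received BrdU for 2 h, were stained with propidium iodide and were sorted by DNA content, early S phase apart from late S phase, and BrdU-containing DNA from 40000 cells per fraction was recovered with an antibody. The 8 libraries form 4 profiles, named control 1 and 2 and deletion 1 and 2, each from 1 early and 1 late library. The labels do not say how many clones, alleles or cultures stand behind a genotype, so p-values may measure technical spread alone. The table holds no read counts, and the depth behind each score is unknown.

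Mammalian chromosomes replicate in large blocks in which many origins fire at about the same time, and such blocks are separated by transition regions in which forks travel toward later-replicating DNA. Early blocks are known for open chromatin, many genes and many transcription start sites, and late blocks for gene-poor DNA that often contacts the nuclear lamina. In embryonic stem cells the genes of the pluripotency network are known to lie largely in early blocks, while some genes of later lineages move to earlier replication during differentiation.

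Genes played no part in the choice of these bins, but the direction of the score (higher is earlier) was taken from gene density. Density therefore cannot check the name of the bins independently. Protein-coding genes lay at 17.99 per Mb of plateau and at 4.17 per Mb of the rest, a ratio of 4.32. The score has no stated unit. Inside the plateau the mean score still varied from 2.00 to 3.69 with a median of 2.82, so the bins form an upper range of scores and not 1 level. Over 100 kb the mean score changed by a median of 0.25 in the plateau. It changed by 0.67 in bins with a score from 0 to 1 and by 0.19 in bins below -2. By class the change was 0.32 from 2 to 2.5, 0.26 from 2.5 to 3 and 0.20 above 3, and it was 0.48 from -2 to 0. The plateau as a whole was thus flatter than the middle of the scale, and its highest class was close to the lowest class of the scale.

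Promoters show how the plateau differs in sequence and how much it varies within. The 300 bases from 250 before to 50 after a transcription start are given for the genes with the 3 highest scores in the plateau, each with a promoter in the reference table. They are Myom3, which encodes a protein of the sarcomere M-band, Slc1a7, which encodes a glutamate transporter, and Fam151a. For contrast, the promoters of the genes with the 2 lowest scores on the chromosome follow, Cyp2j5, a cytochrome P450 gene, and the predicted gene Gm12695. The promoters of Klf4 and of the splicing factor gene Srsf10 were added after their values were seen, as CpG-rich examples. Sequences are from RefSeq for GRCm38.p6, the same build as mm10, read 5′ to 3′ on the gene's strand, with CpG dinucleotides in capitals.
Myom3: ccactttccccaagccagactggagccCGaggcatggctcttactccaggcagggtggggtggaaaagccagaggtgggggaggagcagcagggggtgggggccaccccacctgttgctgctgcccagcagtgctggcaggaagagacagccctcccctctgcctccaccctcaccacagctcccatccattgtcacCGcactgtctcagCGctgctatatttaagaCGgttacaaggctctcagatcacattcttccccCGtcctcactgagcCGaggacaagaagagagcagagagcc
Slc1a7: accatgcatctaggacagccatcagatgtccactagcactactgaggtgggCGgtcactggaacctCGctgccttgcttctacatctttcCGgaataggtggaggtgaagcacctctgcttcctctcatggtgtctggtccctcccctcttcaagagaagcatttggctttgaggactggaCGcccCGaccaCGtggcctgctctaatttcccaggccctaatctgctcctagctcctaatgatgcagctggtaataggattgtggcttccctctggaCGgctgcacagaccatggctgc
Fam151a: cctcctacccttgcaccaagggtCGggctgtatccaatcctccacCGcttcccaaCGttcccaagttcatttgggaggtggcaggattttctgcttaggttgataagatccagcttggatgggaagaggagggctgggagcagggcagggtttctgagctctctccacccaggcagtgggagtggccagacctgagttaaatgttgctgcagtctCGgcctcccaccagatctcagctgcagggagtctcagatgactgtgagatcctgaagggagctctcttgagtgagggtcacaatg
Cyp2j5: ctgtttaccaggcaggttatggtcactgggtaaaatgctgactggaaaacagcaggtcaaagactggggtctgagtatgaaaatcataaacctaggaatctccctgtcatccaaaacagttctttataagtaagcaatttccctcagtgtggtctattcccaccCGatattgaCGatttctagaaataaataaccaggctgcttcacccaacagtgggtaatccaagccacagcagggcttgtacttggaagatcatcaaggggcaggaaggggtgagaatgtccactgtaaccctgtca
Gm12695: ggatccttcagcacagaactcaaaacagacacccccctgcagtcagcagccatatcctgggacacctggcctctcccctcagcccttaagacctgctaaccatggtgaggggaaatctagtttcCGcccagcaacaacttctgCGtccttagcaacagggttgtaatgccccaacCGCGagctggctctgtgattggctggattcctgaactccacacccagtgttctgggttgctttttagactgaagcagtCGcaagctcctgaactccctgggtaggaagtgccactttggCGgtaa
Klf4: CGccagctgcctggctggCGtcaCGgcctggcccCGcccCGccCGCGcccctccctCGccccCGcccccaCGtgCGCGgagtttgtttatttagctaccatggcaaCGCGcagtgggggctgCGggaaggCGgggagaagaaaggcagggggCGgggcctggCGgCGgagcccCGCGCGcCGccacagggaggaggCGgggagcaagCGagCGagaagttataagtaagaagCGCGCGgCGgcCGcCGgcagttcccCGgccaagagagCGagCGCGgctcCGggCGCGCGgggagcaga
Srsf10: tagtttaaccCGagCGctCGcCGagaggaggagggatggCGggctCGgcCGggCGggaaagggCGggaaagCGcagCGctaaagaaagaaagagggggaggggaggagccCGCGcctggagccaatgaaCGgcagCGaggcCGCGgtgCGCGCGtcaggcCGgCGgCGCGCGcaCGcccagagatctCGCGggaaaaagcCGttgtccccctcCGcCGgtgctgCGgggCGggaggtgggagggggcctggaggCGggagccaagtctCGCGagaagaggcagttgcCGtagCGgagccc
The printed promoters lie at chr4:135759465-135759764 (Myom3, plus strand), chr4:107968156-107968455 (Slc1a7, plus), chr4:106733665-106733964 (Fam151a, plus), chr4:96664070-96664369 (Cyp2j5, minus), chr4:96786701-96787000 (Gm12695, minus), chr4:55532426-55532725 (Klf4, minus) and chr4:135855821-135856120 (Srsf10, plus).

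The CpG count of each printed promoter was set against the count that its C and G content would give by chance order. This ratio of observed over expected CpG was 0.21 for Myom3, 0.31 for Slc1a7 and 0.17 for Fam151a. The 3 genes at the top of the timing scale thus had CpG-poor promoters, below the plateau median of 0.69. The late genes Cyp2j5 and Gm12695 had ratios of 0.13 and 0.27. Klf4, with 40 CpG dinucleotides in 300 bases, had a ratio of 0.97, and Srsf10, with 38, had 1.06.

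The timing scores of these genes lay at opposite ends of the scale. Myom3 had scores of 3.33 and 3.33 in the control profiles and 3.34 and 4.01 in the deletion profiles. Slc1a7 had 3.30 and 3.43 in the controls and 3.26 and 4.02 with the deletion. Fam151a had 2.997 and 3.58 in the controls and 3.49 and 3.87 with the deletion. In all 3 genes the second deletion profile was the highest of the 4. Cyp2j5 had -3.50 and -3.35 in the controls and -3.46 and -2.33 with the deletion. Gm12695 had -3.41 and -2.97 in the controls and -3.25 and -2.78 with the deletion.

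The choice of bins depended more on the replicate number of the profiles used than on their genotype. Of the 9584 bins, 8098 (84.5%) had all 4 scores above 2. Of the bins outside, 1240 (5.88%) had at least 1 score above 2. The plateau bin with the lowest mean stood at 2.0002 and the highest bin outside at 1.9998. In all, 1013 plateau bins lay from 2 to 2.25, and 703 bins lay just outside from 1.75 to 2. Of 9261 bins with a control mean above 2, 98.6% were also above 2 in the deletion mean, and of 9928 bins chosen by the deletion mean, 92.0% were above 2 in the control mean. Choice by the number 1 profiles gave 8767 bins, 98.3% of them above 2 in the number 2 profiles. Choice by the number 2 profiles gave 10001 bins, of which 86.2% were above 2 in the number 1 profiles. The early part of the chromosome was thus mostly the same in both genotypes, and the number 2 profiles reached further.

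The domains ranged from 35 to 6330 kb, with a median of 650 kb and quartiles of 417.5 and 1325 kb. The 20 domains over 1 Mb held 76.4% of the plateau, the 5 longest 34.7% and the longest alone 13.2%. Only 4 domains were under 100 kb, with 52 bins between them. Domain means ran from 2.01 to 2.96, with a median of 2.73. Longer domains had higher means (Pearson r = 0.785 with log10 size, Spearman rho = 0.743, over 47 domains of the same 4 profiles). Gene density went with the score less closely (r = 0.475, rho = 0.429). These correlations are descriptions, since every domain was chosen by its score and a short domain consists mostly of edge.

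**Figure D1:**
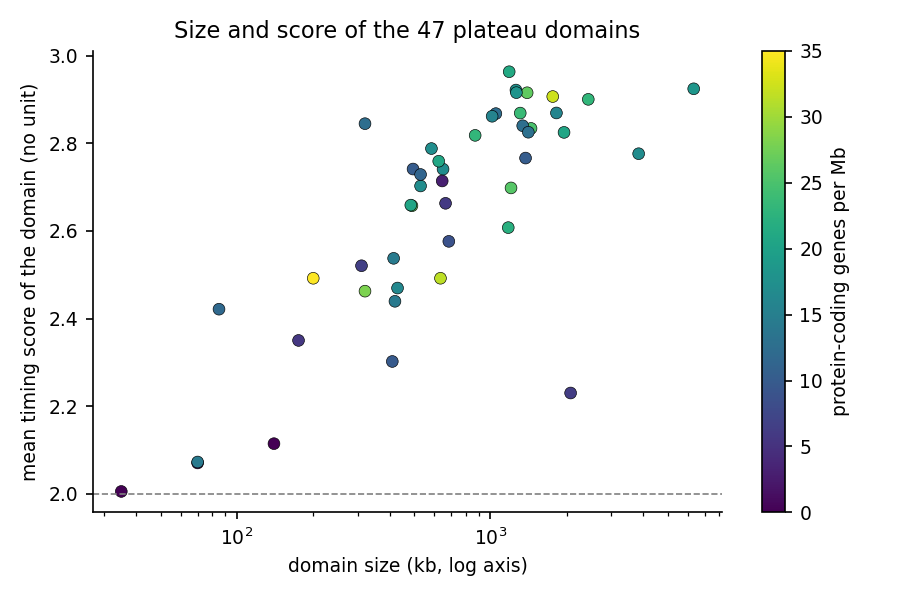
Domain size in kb (log axis) against the mean timing score of the 4 profiles (no unit), 1 point per plateau domain, coloured by protein-coding genes per Mb, with the choice threshold of 2 dashed. The smallest domain spans 35 kb and the longest 6330 kb, and the highest mean is 2.96.

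The score rose steeply inside an edge and then levelled. Bins within 50 kb of their domain's edge had a mean score of 2.23 and changed by a median of 0.73 over 100 kb. Bins from 50 to 100 kb inside had a mean of 2.58 and changed by 0.46. From 100 to 200 kb the mean was 2.76, from 200 to 400 kb 2.90, and further inside 2.87, with changes of 0.23, 0.22 and 0.20. The change thus levelled from about 100 kb inside an edge, which short domains hardly reach. An edge is where the mean score crosses 2, so low scores beside it follow from the choice of bins. Within 50 kb of an edge the 100 kb window also reaches outside the domain.

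Outside the edges, transitions varied in length. Of 94 edges, 47 ran down to a score of 0 before another domain or an unmeasured bin was met, over 100 to 970 kb with a median of 170 kb. The median was 150 kb in control 1, 185 kb in control 2, 150 kb in deletion 1 and 195 kb in deletion 2. In both genotypes the number 2 profile ran further before it reached 0, and the genotypes overlapped. At the last plateau bin the number 2 profiles also stood higher, at 2.04 and 2.40 against 1.86 and 1.88. A higher profile reaches 0 later, so these lengths cannot tell a longer transition from a higher level. The mean of the medians was 167.5 ± 24.7 kb in the controls and 172.5 ± 31.8 kb with the deletion (SD, n = 2 each). That difference of 5 kb lay within the replicate spread (two-sided exact permutation p = 1; 2 profiles against 2 cannot give a p below 0.333). Edges fell inside a protein-coding gene in 41 of 94 cases (43.6%), where 40.4% of all measured bin starts lie in such a gene, 60.0% in the plateau and 31.5% outside it.

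**Figure D2:**
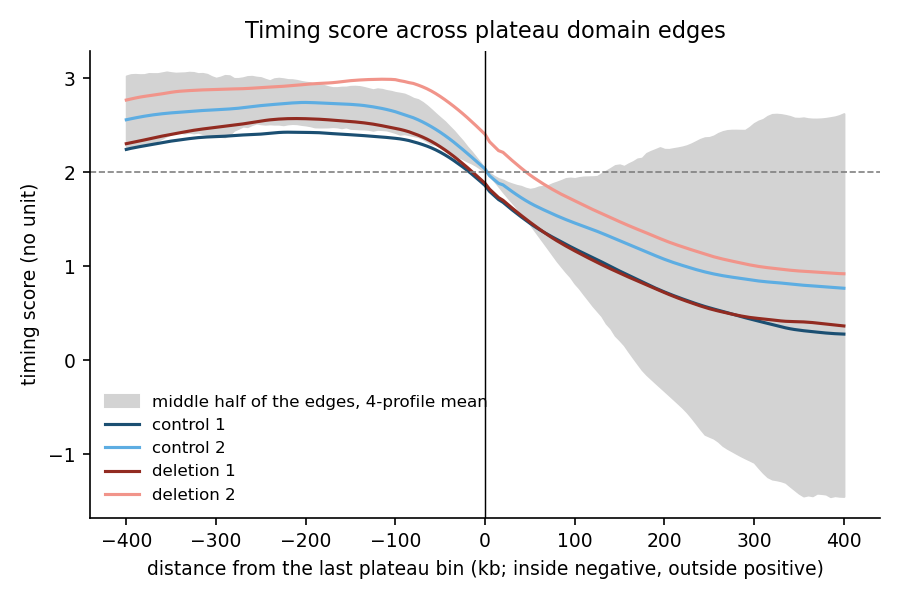
Mean timing score (no unit) of the 4 profiles against distance from the last plateau bin in kb, negative inside and positive outside, averaged over the edges with a measured bin there, 91 to 94 of 94. Grey marks the span between the quartiles of the 4-profile mean. Windows that pass a short domain or meet the next domain are kept. At the last plateau bin the averages are 1.86 and 2.04 in the controls and 1.88 and 2.40 with the deletion.

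Plateau domains were spread along the whole chromosome, but their extent was not even. Below 100 Mb, 22 domains covered 14.3% of the bins. Above 100 Mb, 25 domains covered 60.4%. Gaps between neighbours ran from 15 to 20420 kb, with a median of 662.5 kb, and 7 were over 5 Mb. In 22 of 45 measured gaps the mean score never fell below 0, and in 14 it fell below -2. Bins with a mean score above 0 formed 40 runs of 70.095 Mb in all. Of these runs, 14 held 1 plateau domain, 11 held more, up to 6, and 15 held none. Plateau bins made up 68.4% of all bins above 0.

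The longest domain, domain 39 in order along the chromosome (chr4:133910000-140239999), held 116 protein-coding genes. Its mean scores were 2.78 and 3.02 in the control profiles and 2.80 and 3.09 in the deletion profiles. The number 2 profiles were higher, and the genotypes overlapped. It includes Lin28a, whose product binds RNA and blocks let-7 maturation, at a mean score of 2.88, and Wnt4, which encodes a secreted signal, at 3.36. The ubiquitin ligase gene Ubr4 stood at 3.33, Srsf10 at 3.24 and Grhl3, for an epithelial transcription factor, at 2.997. The ribosomal protein gene Rpl11 stood at 2.40.

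The other long domains were alike in level except for 1. Domain 44 (3840 kb, 65 protein-coding genes) had scores of 2.56 and 2.91 in the controls and 2.63 and 3.01 with the deletion. It holds Mad2l2, Ube4b, the RNA-binding protein gene Tardbp and the enolase gene Eno1, at mean scores of 2.83, 2.92, 2.23 and 2.31. Domain 27 (2430 kb, 56 genes) had 2.63 and 3.01 in the controls and 2.74 and 3.23 with the deletion. It holds Cdc20, an activator of the anaphase-promoting complex, at 2.99, the histone demethylase gene Kdm4a at 2.81, Ybx1 at 2.91 and the forkhead gene Foxj3 at 2.54. Domain 40 (1950 kb, 40 genes) had 2.71 and 2.95 in the controls and 2.65 and 2.99 with the deletion. Its genes include Rcc2 at 2.88, Padi4 at 3.08, Efhd2 at 3.36 and the ephrin receptor gene Epha2 at 2.22.

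Domain 43 (chr4:145095000-147164999) stood apart among the long domains. It spans 2070 kb but holds only 13 protein-coding genes, 8 of them named as zinc finger proteins (Zfp). Its scores were 1.77 and 2.498 in the control profiles and 1.84 and 2.81 in the deletion profiles, so both number 1 profiles lay below 2 and the genotypes overlapped. The median step between its adjacent bins was 0.0083, against a median of 0.0204 over the 47 domains. Zfp990 stood at 1.36 and 2.41 in the controls and at 1.62 and 3.07 with the deletion. At one end of the domain lie Tnfrsf8 and Tnfrsf1b, receptor genes of the tumour necrosis factor family, at mean scores of 2.55 and 2.42, and the predicted gene Gm42346 stood at 2.20. Another 8 Zfp genes lie in domain 44, which begins after a gap of 55 kb. Reads of near-identical family members are hard to place, and no source used here says how they were counted.

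The domains with the highest mean score were domain 24 at 2.96, domain 29 at 2.92 and domain 39 at 2.92. Domain 24 (1185 kb) had 2.63 and 3.02 in the controls and 2.78 and 3.42 with the deletion. It carries Fam151a, Mroh7, Ttc4 and the acyl-CoA thioesterase gene Acot11, at mean scores of 3.49, 3.47, 3.37 and 3.20. Domain 29 (1260 kb) had 2.70 and 2.92 in the controls and 2.79 and 3.27 with the deletion. It carries Mycl, a relative of Myc, at 2.69, and Cap1, an actin regulator, at 3.11. Ppie, for a cyclophilin, stood at 3.32 and Oxct2b at 3.29. The 3 highest bins of the chromosome lie within Mast2, a kinase gene in domain 26, at chr4:116425000-116439999, with a mean score of 3.69 each. In the highest of them the scores were 3.82 and 3.49 in the controls and 3.28 and 4.17 with the deletion. The deletion profiles there were both the lowest and the highest of the 4.

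Of 1301 protein-coding genes measured, 862 (66.3%) had their midpoint in the plateau. Other gene classes differed in their share. The plateau held 43 of 56 miRNA genes (76.8%), 378 of 774 lncRNA genes (48.8%), 220 of 570 pseudogenes (38.6%), 32 of 64 snRNA genes, 31 of 73 snoRNA genes and 4 of 8 tRNA genes. Protein-coding density rose from 2.00 per Mb in bins below -2 to 10.5 per Mb in bins from 1 to 2. In the plateau it was 14.2 per Mb from 2 to 2.5, 19.7 per Mb from 2.5 to 3 and 18.6 per Mb above 3. The rise with score thus ended within the plateau. lncRNA density was 8.25 per Mb from 1 to 2 and between 7.35 and 9.05 per Mb in the plateau classes, so it showed no such step at the threshold.

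The share of protein-coding genes in the plateau, 66.3% over all lengths, was lower for long and for short genes. Of 143 genes over 100 kb, 62 (43.4%) had their midpoint in it. Of 447 under 10 kb, 277 (62.0%) did, and of 711 genes of 10 to 100 kb, 523 (73.6%) did. The shares were not tested. The median length was 18.4 kb in the plateau and 20.5 kb outside.

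Plateau promoters were richer in CpG as a class. Of 862 plateau genes, 738 had a promoter in the RefSeq table, and promoters were also assigned by their own bin. The 956 protein-coding promoters in plateau bins had a median G+C content of 60.3% and a median CpG ratio of 0.69. The 411 promoters elsewhere had 52.0% and 0.31. A CpG ratio above 0.6 was found in 58.2% of plateau promoters and in 32.4% of the others. Promoters in bins from 1 to 2 already had a median ratio of 0.64, and those in the 3 plateau classes had 0.68, 0.70 and 0.68. Promoter CpG content therefore differed little across the threshold, and the medians of the classes below 1 were 0.16 to 0.31.

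Short motifs were counted in the same 300 bases on both strands. TATAAA, the core of the TATA box, occurred in 6.80% of plateau promoters, in 17.3% of the others and in 9.95% of all. GGGCGG, the GC box, which itself holds a CpG, occurred in 59.9%, 35.5% and 52.6% in the same order. CCAAT occurred in 37.4%, 40.9% and 38.5%, so the plateau and the rest differed little as wholes. By class it varied more, with 54.2% below -2, 30.3% from 1 to 2 and 41.7% above 3. A match is a description of the letters in this window.

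**Figure D3:**
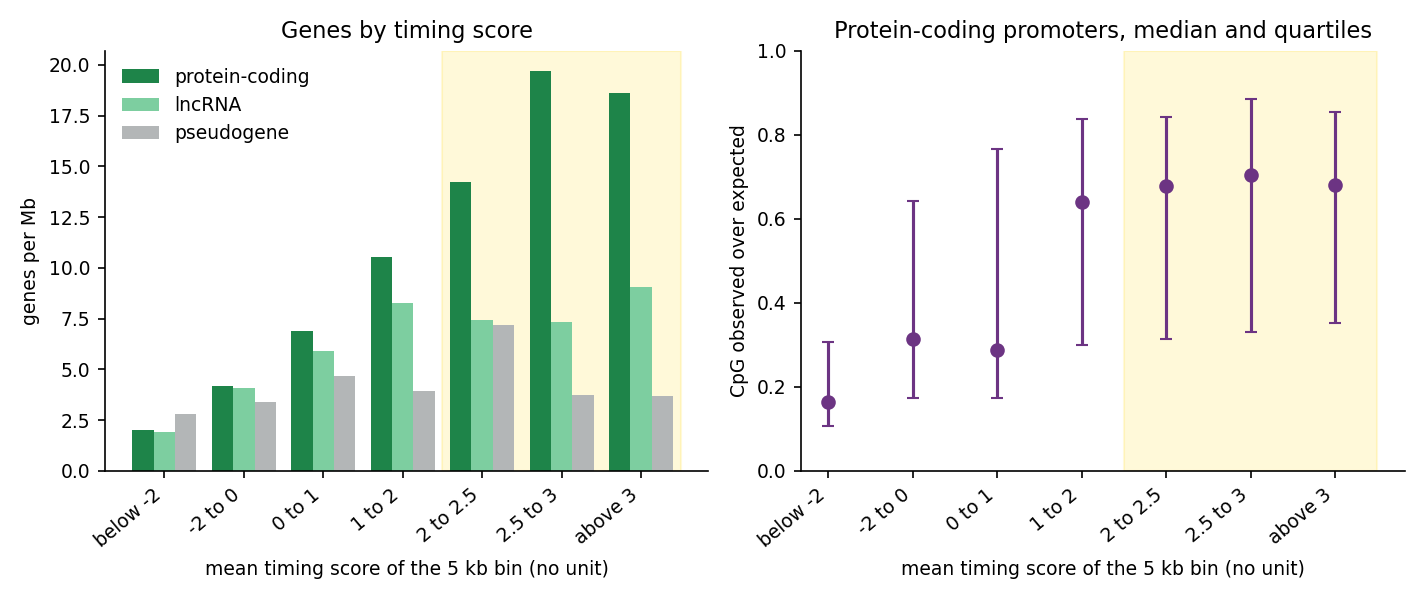
Left, genes per Mb by class of mean timing score (no unit) for protein-coding, lncRNA and pseudogenes. Right, the median and quartiles of observed over expected CpG of protein-coding promoters in the same classes. The yellow band marks the plateau classes, where protein-coding density is 14.2 to 19.7 per Mb and the median CpG ratio 0.68 to 0.70.

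Lists of genes by role were placed on the plateau, beside the 66.3% of all protein-coding genes. Of 31 housekeeping genes, 27 lay in it, with the highest scores in Srsf10 (3.24) and the proteasome gene Psmb2 (3.19). Those outside included Stoml2 (1.97), Rps20 (1.57) and the proton pump gene Atp6v1g1 (0.48). Of 27 replication and cell cycle genes, 20 lay in it, led by the recombination gene Rad54l at 3.05 and the repair gene Rad23b at 3.03. The condensin gene Smc2, at -1.52, and the cell cycle inhibitor gene Cdkn2b, at 0.15, were the lowest of that list.

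Of 24 genes listed under chromatin, 18 lay in the plateau. The Argonaute gene Ago1 stood highest at 3.34, and Mllt3 and Bend5 lowest at -1.45 and -2.51. Ago1, Ago3 and Ago4 lie side by side in domain 31 and are not separate placements. Of 9 genes listed under pluripotency, 8 lay in the plateau, with Klf17 at 3.23 and Lin28a at 2.88. Jak1, the kinase of the LIF receptor, stood at 2.19. The exception on this list was Zfp352 at -2.41. The lists are broad headings, and the roles of their members in these cells were not tested. Differentiation genes were spread over the whole range, with 18 of 36 in the plateau. Among these the homeobox gene Dmbx1 stood at 3.39 and Wnt4 at 3.36, while Lingo2 and Dmrta1 stood at -2.55 and -2.63.

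Most gene families lay mainly inside or mainly outside. All 5 Padi genes, for enzymes that convert arginine to citrulline, were inside, as were all 5 connexin genes, all 7 Tnfrsf genes, 23 of 27 Zfp genes and 19 of 24 olfactory receptor genes. Median scores of these families were 3.17, 2.61, 2.55, 2.31 and 2.53. The olfactory receptor genes in the plateau were 6 in domain 9 and 13 in domain 27. Outside lay all 11 Skint genes and all 10 Cyp4 genes, 21 of 22 Mup genes for major urinary proteins, 22 of 24 Pramel genes and 17 of 18 type I interferon genes. The exceptions were Mup4 at 2.06, Pramel1 and Pramel12 at 2.56 and 2.41, and Ifnk at 2.43. Genes of 1 cluster share their bins or neighbouring bins, so a family counts as 1 or a few placements.

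The 4 profiles differed in level over the plateau. The mean score of the same 9584 bins was 2.55 in control 1, 2.85 in control 2, 2.63 in deletion 1 and 3.07 in deletion 2. Within each genotype the number 2 profile was higher, and the genotypes overlapped. Relative to each profile's chromosome median, which ran from -0.79 to -0.21, the values were 3.35, 3.21, 3.36 and 3.28 in the same order. After this subtraction the number 2 profiles were no longer the higher ones. Each profile's own share of the chromosome above 2 was 28.2%, 31.0%, 28.9% and 34.2%, in 58, 47, 55 and 50 domains. Domains were more broken in the number 1 profiles, with a median size of 517.5 and 540 kb against 640 and 662.5 kb.

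The spread between replicates varied with the score. The median SD of a bin between control profiles was 0.23 in the plateau and 0.32 elsewhere, and between deletion profiles 0.32 and 0.40. Bins with a score from 1 to 2, next to the plateau, had the lowest control SD, 0.17, and a deletion SD of 0.39, equal to that of plateau bins from 2 to 2.5. Plateau replicates were thus not closer than those of the neighbouring class in control. In 76.0% of plateau bins and 67.0% of the bins outside, the number 2 profile was above number 1 in both genotypes. Over all plateau bins the median of number 2 minus number 1 was 0.30 in control and 0.43 in deletion cells. Outside the plateau it was 0.35 and 0.47, so the shift was not particular to the plateau. Deletion 2 was the highest of the 4 profiles in 43 of 47 domains. The part of depth or library quality in these shifts was not tested.

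**Figure D4:**
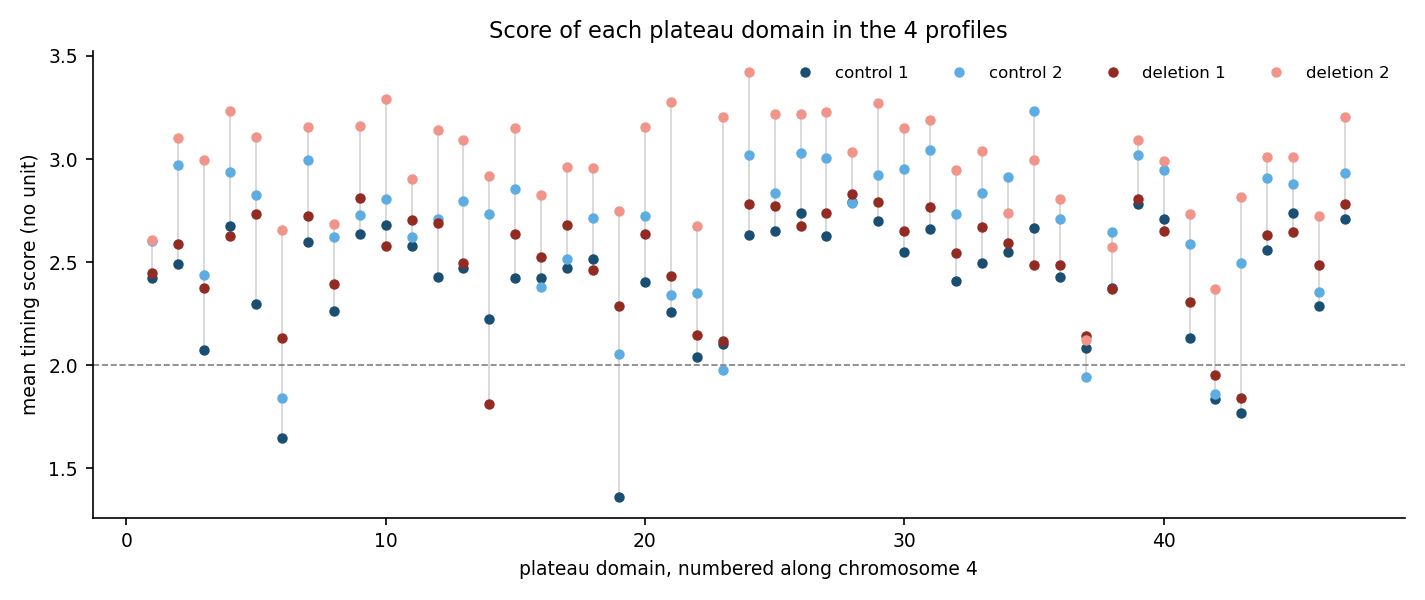
Mean timing score (no unit) of each of the 47 plateau domains, numbered along the chromosome, in the 4 profiles, with a grey line from the lowest to the highest. Deletion 2 is the highest in 43 domains, and domain 19 has the lowest single value, 1.36 in control 1.

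The genotypes were compared over the plateau as a whole, to ask whether early replication has another extent or level once the enhancer is lost. The mean plateau score was 2.70 ± 0.21 in the controls and 2.85 ± 0.31 with the deletion (SD, n = 2 each). This difference of 0.15 lay within the replicate spread (two-sided exact permutation p = 0.667). Relative to the chromosome medians it was 0.04, and without deletion replicate 2 it was -0.07. The share of the chromosome above 2 was 29.6% ± 2.00 in the controls and 31.5% ± 3.74 with the deletion (SD, n = 2 each). The difference of 1.95 percentage points was also within that spread (two-sided exact permutation p = 0.667), and was -0.696 without deletion replicate 2.

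No bin, domain or gene of the plateau passed the test of genotype. limma (no block, Benjamini-Hochberg adjustment over all features, threshold 0.05) called 0 of 9584 plateau bins, with 0% of all 30659 bins called. It called 0 of 47 domains, with 0% called of all 93 domains and stretches between them, and 0 of 862 genes, with 0% called of all 1301. At an unadjusted p under 0.05 in limma there were 39 plateau bins (0.407%), beside 0.975% of all bins. There were also 1 domain (2.13%), beside 3.23% of all segments, and 8 plateau genes (0.928%), beside 1.31% of all genes. Leaving out deletion replicate 1 gave 2 domains in limma, domain 19 at adjusted p = 0.0458 and domain 23 at adjusted p = 0.0210, beside 4.3% of all segments. It also gave 2 plateau genes, among them Jak1 at adjusted p = 0.0206 in limma, beside 0.307% of all genes. In that fit the lone deletion profile is taken to vary like the control profiles.

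The count of calls changed when the replicate number was entered as a block, although no label calls same-numbered profiles pairs. limma then called 108 plateau bins, 101 earlier and 7 later in deletion cells, beside 2.56% of all bins (2.09% earlier and 0.473% later). It called 4 domains, all earlier, beside 12.9% of all segments (9.68% earlier and 3.23% later). These were domains 6, 19, 21 and 23, at limma adjusted p = 0.00218, 0.000102, 0.0114 and 0.00349, and domain 6 was named after its values were seen. Domains 6 and 19 had control means of 1.75 and 1.71, and joined the plateau through the deletion profiles. With the block, limma called 0 genes, beside 0% of all genes, with 85 plateau genes at an unadjusted p under 0.05 beside 12.7% of all genes. With median centring as well, which was added after seeing the data, 87 plateau bins were called, 56 earlier and 31 later, beside 2.33% of all bins (1.32% earlier and 1.01% later). No domain was then called, beside 0% of all segments, with 6 domains at an unadjusted p under 0.05 beside 18.3% of all segments. In each of these counts the plateau share was below that of the chromosome or equal to it.

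In 12 of 47 domains (25.5%) both deletion profiles were above both controls, where 17.2% of all segments were. Among these, domains 6, 19 and 42 had control means of 1.75, 1.71 and 1.85, below the threshold of 2. Their deletion means were 2.39, 2.52 and 2.16, so they joined the plateau through the deletion profiles. The domain count is therefore not independent of the choice of bins. Both deletion profiles lay below both controls in 0 domains, where 5.38% of all segments did so. In bins the shares were 1573 of 9584 (16.4%) above, beside 16% of all bins, and 474 (4.95%) below, beside 5.86%. In genes they were 135 of 862 (15.7%) above, beside 15.1%, and 49 (5.68%) below, beside 6.53%. For bins and genes the plateau therefore stood near the background of the chromosome. The split between above and below depended on scaling at every level. After quantile normalization 10 domains (21.3%) lay above, beside 16.1% of all segments, and 9 (19.1%) below, beside 20.4%. After median centring 12 domains (25.5%) lay above, beside 23.7% of all segments, and 1 (2.13%) below, beside 6.45%. For plateau bins, median centring gave 2000 (20.9%) above, beside 17.4% of all bins, and 1140 (11.9%) below, beside 12.1%. Quantile normalization gave 1619 plateau bins (16.9%) above, beside 14.4% of all bins, and 1753 (18.3%) below, beside 14.9%. For plateau genes, median centring gave 154 (17.9%) above, beside 17.8% of all genes, and 122 (14.2%) below, beside 13.5%. Quantile normalization gave 125 plateau genes (14.5%) above, beside 14.6% of all genes, and 193 (22.4%) below, beside 19%.

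Domain differences, deletion minus control, ran from -0.21 to 0.81 with a median of 0.17, and each had a standard error of 0.34 in limma. They were above 0 in 42 domains and below 0 in 5. Relative to the median shift of all bins, 0.16, 27 domains were higher and 20 lower, so the excess above 0 was smaller against that shift. The signs were 34 above and 13 below after median centring, and 25 and 22 after quantile normalization.

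Domain 19 had the highest difference. It spans 140 kb at chr4:84650000-84789999 and holds no protein-coding gene midpoint, but Bnc2 crosses its lower edge. Over the whole of Bnc2 the scores were 0.42 and 1.11 in the controls and 1.08 and 2.01 with the deletion. The mean score stayed above 0 in the gap before domain 19, with a lowest value of 0.19, and fell to -1.62 in the gap after it. The domain's scores were 1.36 and 2.05 in the controls and 2.29 and 2.75 with the deletion, with no overlap. Its mean of 2.11 is close to the threshold. The control mean of 1.71 is below it, so the domain joined the plateau through the deletion profiles. The difference of 0.81 did not pass the test without a block (limma, adjusted p = 0.715). It was 0.47 without control replicate 1 and 1.16 without control replicate 2. The only other 2 segments at an unadjusted p under 0.05 lay outside the plateau. They are the stretch before domain 19, from 83775000, with a difference of 0.79, and the stretch after the Klf4 domain, from 55565000, with -0.79.

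Domain 23, with Jak1, had scores of 2.10 and 1.98 in the controls and 2.12 and 3.20 with the deletion. Only deletion 2 stood clear of the others. Its difference of 0.62 (limma, adjusted p = 0.985) was 0.08 without deletion replicate 2. Over Jak1 itself the scores were 1.91, 1.72, 1.84 and 3.31, so here the first deletion profile lay between the controls.

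Domain 21 showed the same arrangement, with 2.26 and 2.34 in the controls and 2.43 and 3.28 with the deletion. It holds L1td1, an RNA-binding protein gene known from stem cells, at 2.36 and 2.45 in the controls and 2.60 and 3.71 with the deletion. The deubiquitinase gene Usp1 stood at 2.39 and 2.58 in the controls and 2.56 and 3.03 with the deletion. Differences were 0.75 for L1td1, 0.56 for Kank4 and 0.31 for Usp1. None passed the test (limma, adjusted p = 0.999 for each). The domain difference of 0.55 fell to 0.13 without deletion replicate 2.

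At the other end, domain 35 had 2.67 and 3.23 in the controls and 2.49 and 2.99 with the deletion, a difference of -0.21. The groups overlapped. Its genes include Sdc3, Laptm5 and Matn1, with differences of -0.00025, -0.32 and -0.33. Domain 34 differed by -0.07 and domain 38 by -0.04. Domain 34 holds Hdac1, a histone deacetylase gene, at -0.08, Eif3i at -0.32, Snrnp40 at 0.05 and Tinagl1 at 0.18. Domain 38 holds the chromatin remodeller gene Arid1a at 0.03, Nudc at -0.06, Tent5b at -0.05 and Trnp1 at -0.04. None of these domains passed the test (limma, adjusted p = 0.985 for each), and their signs turned when control replicate 2 or deletion replicate 1 was left out.

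The domain that holds Klf4, domain 14, spans 85 kb at chr4:55480000-55564999. It is parted from domain 13, which ends at 55464999, by 3 bins (from 55465000, 55470000 and 55475000) with values in the control profiles alone, the only unmeasured bins between the first and last measured ones. The rule thus splits an early stretch that the control profiles cover without a break. Domain 14 had 2.22 and 2.73 in the controls and 1.81 and 2.92 with the deletion. The deletion profiles were both the lowest and the highest. The mean was 2.48 ± 0.36 in the controls and 2.37 ± 0.78 with the deletion (SD, n = 2 each), a difference of -0.11 that did not pass the test (limma, adjusted p = 0.985). Leaving out single profiles gave -0.67 to 0.44.

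No list of genes held a called member in either direction (limma, lowest adjusted p = 0.999). Among housekeeping, replication, chromatin, pluripotency and differentiation genes, 0 of 31, 27, 24, 9 and 36 passed, and 0, 0, 0, 1 and 1 had an unadjusted p under 0.05, beside 17 of 1301 genes. Median differences of the lists were 0.04, 0.09, -0.03, 0.29 and 0.15, beside 0.14 over all genes and 0.12 over the 862 plateau genes.

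**Figure D5:**
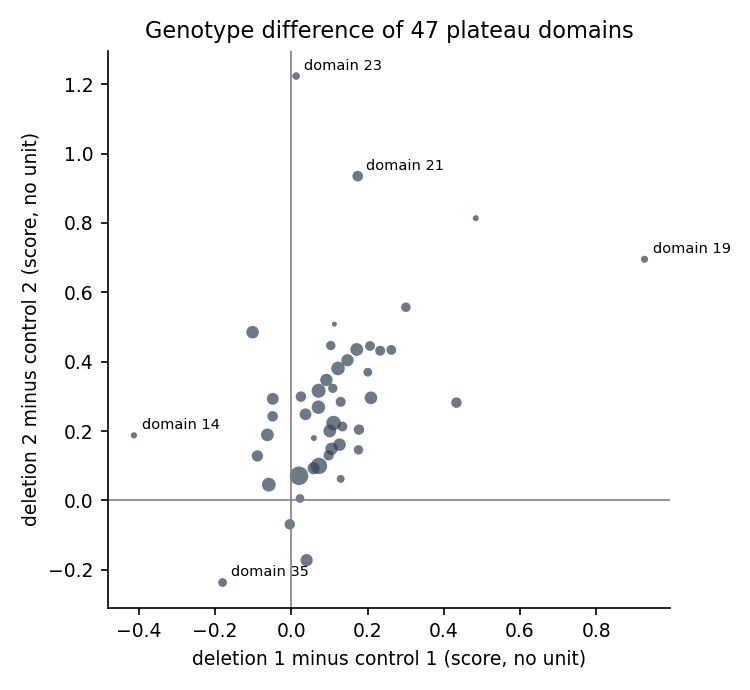
Difference in mean timing score (no unit), deletion minus control, of the 47 plateau domains in the number 1 profiles (horizontal) and the number 2 profiles (vertical), with dot area growing with the square root of domain size. The median is 0.10 in number 1 and 0.27 in number 2, and 37 domains are above 0 in both. Domains 19, 21, 23, 35 and 14 are named.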

How the data were processed

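The deposited table holds 1 timing score per 5 kb position of chromosome 4 for each of 4 profiles. The name of the deposited file says that the authors scaled the scores by interquartile range, which was 4.60 in each profile. Log base, smoothing and library pooling are not given in the sources used here. Per the submitters' processing notes, Bowtie2, SAMtools and bedtools were used on mm10, without stated versions. Positions were taken as bin starts. The table has 31301 positions, of which 639 lack any value and 3 have values in control alone.

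Genes came from a RefSeq table of GRCm38.p6 (1301 measured protein-coding genes). Each gene was scored as the average of its overlapping bins, and a gene belongs to the plateau by its midpoint. Bins, segments (domains and the stretches between them) and genes were fitted in R 4.3.3 with lmFit and eBayes of limma 3.58.1 on the scores as deposited, with all 4 profiles and no covariate. The moderated spread is pooled over features, so a standard error does not measure 1 domain alone. Single values were compared by exact permutation over profiles. The fits were also run on simulated profiles with independent noise in each feature and profile. Neighbouring measured bins are not independent, so those runs do not show the error rate for these data.

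The plateau, its gene lists and its tests were chosen with earlier results of these data known. The domains named are the 5 longest, the 3 of highest score, the 3 of highest and 3 of lowest difference among those of at least 100 kb, and that of Klf4, with up to 4 genes each. Also named are the 2 highest and 2 lowest members of each list and the genes of the 3 highest bins. Family members and other list genes outside the plateau were named after their values were seen. Some genes that this rule selects are not reported here. Alternatives were thresholds of 1.5 and 2.5, all 4 scores above 2, merging or dropping short domains, median centring, quantile normalization, limma's trend and robust options, the replicate number as a block, bin ends and leaving out each profile.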

Additional observations from a re-analysis of the deposited data

How the results depend on the processing

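A threshold of 1.5 gave 38 domains and one of 2.5 gave 74, with a median size of 390 kb. Requiring all 4 scores above 2 gave 62 domains, a median size of 482.5 kb and 19.6 genes per Mb. Merging domains up to 50 kb apart gave a median of 895 kb. Quantile normalization made the difference in share 0 by construction and that in mean plateau score -0.0131. Leaving out single profiles gave differences of -0.696 to 4.59 percentage points in share and of -0.0709 to 0.371 in mean score. It gave 0 to 2 called domains, 0 to 2 called genes and no called bin. Among domain differences it gave -0.49 to 0.07 for the domain from 130670000, -0.25 to 0.11 for that from 129335000, -0.17 to 0.10 for that from 133165000 and -0.67 to 0.44 for that from 55480000. The reversals for the domains from 130670000, 129335000, 133165000 and 55480000 were 0.0733, 0.113, 0.098 and 0.142 without control replicate 2, and 0.045, 0.00712, 0.0654 and 0.442 without deletion replicate 1. The cause of these changes was not tested.

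The replicate numbers are shared by the genotypes, with 2 pairs, and the labels do not say what they mark. Deviations from the genotype mean correlated at 0.637 between profiles of the same number over all bins and at 0.291 over plateau bins. With the number as a replicate block, limma called 108 plateau bins, 4 domains and 0 genes. The domains are 6, 19, 21 and 23, which start at 40295000, 84650000, 98655000 and 101185000, all higher in deletion cells. Domains 6 and 19 had control means below the threshold and joined the plateau through the deletion profiles. With median centring, added after seeing the data, the block gave 87 bins and 0 domains. Depth is unknown, and with 2 profiles per genotype no domain difference, up to 0.81, passed without the block.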
